A study of Homo sapiens with 14 samples.

Results

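The nuclear-encoded subunits of the oxidative phosphorylation system were 86 of the 22410 genes in the deposited tables. They were taken by current gene symbol: the NDUFA, NDUFB, NDUFC, NDUFS and NDUFV genes of complex I (NDUFAF genes left out), SDHA to SDHD of complex II, the UQCR genes and CYC1 of complex III, the COX4I, COX5, COX6, COX7 and COX8 genes of complex IV, and the ATP5F1, ATP5M and ATP5P genes of complex V. Assembly factors, pseudogenes and 2 readthrough genes were left out. Complex I contributed 37 members, complex II 4, complex III 10, complex IV 17 and complex V 18. Of the 86, 80 passed the filter on low counts and were tested, and the other 6 are COX4I2, COX6A2, COX7A1, COX7B2, COX8C and ATP5MGL.

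Polyadenylated RNA was sequenced from 293 Flip-In T-REx cells in 14 libraries. The parent is a line of human embryonic kidney cells into which a transgene is placed at 1 fixed site, and the series looked for off-target edits by SNAP-ADAR proteins. The control group (ctrl) carried an empty vector. The other lines carried a SNAP-ADAR, the SNAP tag fused to the deaminase domain of ADAR (SNAP-ADAR1, SA1) or of ADARB1 (SNAP-ADAR2, SA2), and the tag bonds to a modified guide RNA. In the Q forms (SNAP-ADAR1Q and SNAP-ADAR2Q) a glutamate of the deaminase domain is replaced by a glutamine, known as a hyperactive form. The 7 groups of 2 libraries were ctrl, SA1Q and SA2Q with no guide in their labels, and SA1+gRNA, SA2+gRNA, SA1Q+gRNA and SA2Q+gRNA with a guide RNA. The target of the guide is not given in the sources used here, nor is the induction of the transgene or whether a line is 1 clone. The series names 2 biologically independent experiments.

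Complexes I to IV of the inner mitochondrial membrane pass electrons from NADH and succinate to oxygen, and complexes I, III and IV pump protons as they do so. Complex V, the ATP synthase, lets the protons flow back and makes ATP. A few subunits are encoded in mitochondrial DNA and are not analysed here, while the others are encoded in the nucleus, translated in the cytosol and imported. In cultured kidney cells, as in most tissues, these nuclear genes are expressed throughout, and some complex IV subunits have a second form known from muscle, heart, lung or testis.

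The libraries held 43.0 M to 130.1 M fragments. The highest total was that of SA1+gRNA replicate 2, and the others held at most 68.2 M. The members held 1.18% to 1.40% of the fragments counted on the 1 transcript kept per gene. ADAR lay at 1085 to 1603 TMM-scaled CPM (counts scaled to library size and composition) in the 6 libraries of the SA1 lines and at 297 to 340.1 elsewhere. ADARB1 lay at 939.5 to 1163 in the 6 libraries of the SA2 lines and at 25.5 to 37.2 elsewhere, so every library matched its label as SA1, SA2 or neither. These levels do not check the Q substitution or the presence of guide. All counts of SA1+gRNA replicate 2 were even numbers, and halving them changed no call on a member. Markers known from 293 cells summed to 1538 to 1890 CPM. Markers of other cells summed to 5.60 to 9.85 CPM for fibroblasts, 122 to 181 for blood, 0.714 to 2.44 for muscle and 0.162 to 0.566 for liver. The blood sum came from LCP1 and CD68, while PTPRC, which defines white cells, reached at most 0.406.

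Levels between genes are given in FPKM, which the authors deposited and which scales a fragment count to transcript size and library total. The median of the 80 tested members was 119 FPKM, against 10 FPKM for the 12431 genes that averaged over 1 FPKM. All but COX6B2 (79 of 80) lay above that median. The highest was ATP5F1B, the catalytic beta subunit of ATP synthase, at 727 FPKM, with 672 to 788 over the 14 libraries. COX6A1 at 585, COX7C at 580.5 and COX6B1 at 521, small subunits of complex IV, and UQCRH, the hinge protein of complex III, at 474 came next. COX6A1 ran from 467 to 683 and COX7C from 503 to 662, so these neighbours overlapped widely. ATP5F1B did not overlap with COX7C.

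**Figure D1:**
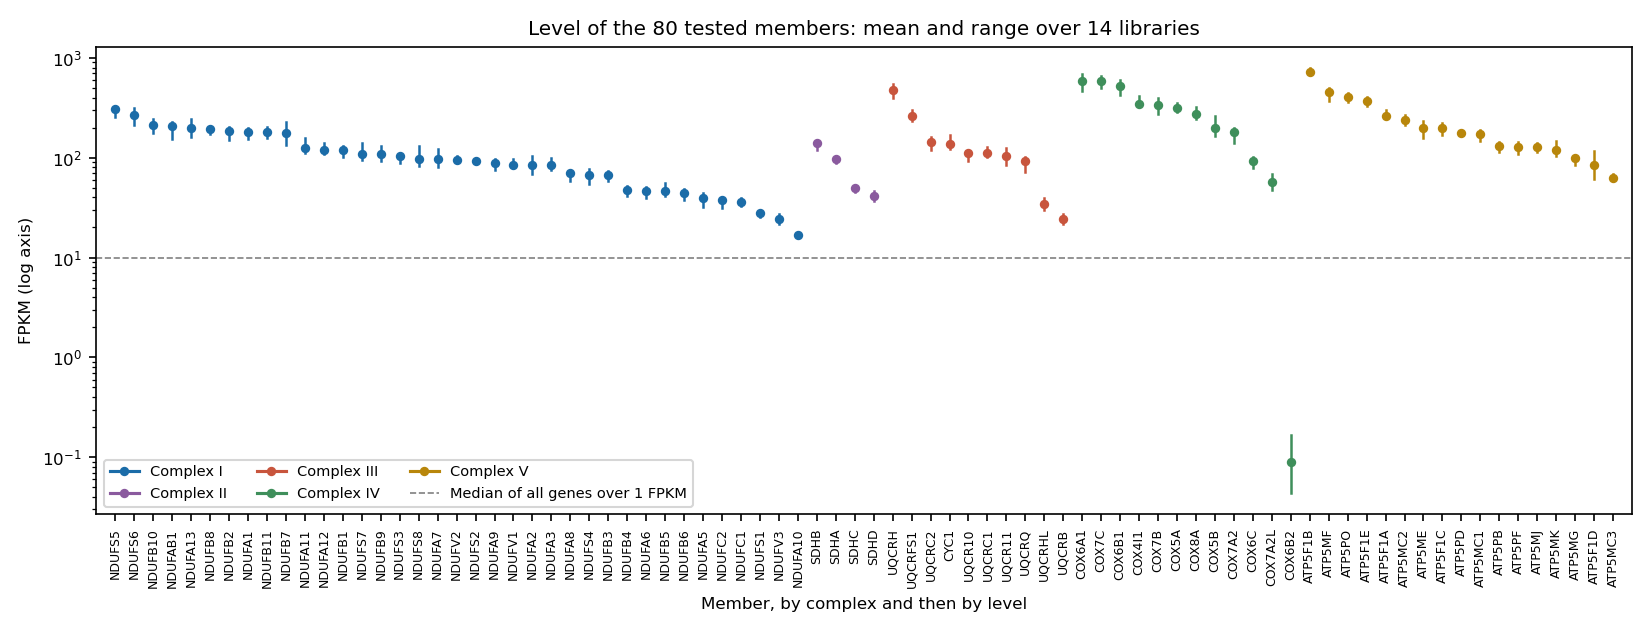
Mean FPKM (points, log axis) and range over 14 libraries (lines) for each tested member, grouped by complex. Of the 80 members, 79 sit above the dashed line at 10 FPKM, the median of all genes over 1 FPKM, and COX6B2 lies far below it.

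By complex, the median was 95.4 FPKM for complex I, 73.1 for complex II, 112 for complex III, 293 for complex IV and 178 for complex V. Complex I ran from NDUFA10, an accessory subunit, at 16.6 to NDUFS5, another accessory subunit, at 311. Among its 7 core subunits, which carry the flavin and the iron-sulfur clusters, NDUFS1 was lowest at 28.1 and NDUFS7 highest at 109.6. SDHB, the iron-sulfur subunit of succinate dehydrogenase, led complex II at 140.2, and SDHD, a membrane anchor, was lowest at 41.5. Complex III ran from UQCRB at 24.5, measured on a transcript of 5109 nucleotides, to UQCRH at 474. In complex V, ATP5MC3, a gene for the c subunit of the membrane ring, was lowest at 63.1. An FPKM depends on the transcript that stands for the gene. With the transcript of highest FPKM in place of that of highest FPM, NDUFB4 was 2.55 times as high, ATP5PF 1.78 times and NDUFC1 1.62 times.

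The tissue-restricted forms of complex IV were near 0. COX4I1, a subunit known to bind ATP as a regulator, averaged 345 FPKM and its alternative COX4I2 averaged 0.0130, at 0 in 10 of 14 libraries. The same held for COX6A1 at 585 and COX6A2 at 0.0125, for COX6B1 at 521 and COX6B2 at 0.0896, and for COX7A2 at 182 and COX7A1 at 0.110. COX7B stood at 340.4 beside COX7B2 at 0.0103, and COX8A at 272 beside COX8C at 0.0998. COX7A1, known from heart and skeletal muscle, had 0 to 14 fragments per library, with 14 in SA1+gRNA replicate 2, whose counts were all even. The ubiquitous form thus held at least 99.88% of the FPKM of each pair in every library. UQCRHL, an intronless relative of UQCRH, held 5.80% to 7.52% of the FPKM of that pair, and fragments of the 2 genes may be hard to assign. ATP5MC1, ATP5MC2 and ATP5MC3 encode the same mature c subunit, and held medians of 36.3%, 50.2% and 13.4% of their sum.

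The members shared short transcripts, with a median size of 853.5 nucleotides against 2503.5 for all genes. Of the 86, 50 have pseudogenes listed in RefSeq and 16 overlap another gene, so their counts are uncertain where the authors' counting could have split fragments. RefSeq promoter windows (build GRCh38.p14, 250 bases before to 50 after a start) were found for 69 members, and 4 motifs were searched on both strands. The NRF1 motif, searched as its palindrome-like consensus with 1 free base, was in 17 windows (24.6%, against 5.74% of all 34943 windows), the ETS motif CCGGAAG in 21 (30.4% against 10.2%), the YY1 motif AAGATGG in 18 (26.1% against 5.85%) and TATAAA in 7 (10.1% against 11.6%). NRF1, the ETS factor GABPA and YY1 are known regulators of respiratory genes, and a match describes the letters only. By complex, NRF1 matches were in 4 of 7 windows of complex III and 1 of 14 of complex IV, and ETS matches in 5 of 32 of complex I and 5 of 14 of complex IV.

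Stretches of 30 bases around matches in the 150 bases before the start are shown for members that come up in the comparisons (NDUFA1, ATP5PF, UQCRC2) and for members with more than 1 of the 4 motifs in those bases (SDHD, UQCR11 and ATP5PF; 1 stretch per motif), with the motif in capitals, 5′ to 3′ on the strand of the gene.
NDUFA1, ETS, chrX:119871774-119871803, plus strand: ttccgtcgcttCTTCCGGagccgtacgtgg
ATP5PF, YY1, chr21:25735093-25735122, minus strand: taggcgaagaaAAGATGGcggaggctgtgc
ATP5PF, ETS, chr21:25735066-25735095, minus strand: tgccaggggacCCGGAAGcacttaccctcc
UQCRC2, TATA, chr16:21953256-21953285, plus strand: ctggtccaacctTATAAAgagagcagtaga
SDHD, NRF1, chr11:112086753-112086782, plus strand: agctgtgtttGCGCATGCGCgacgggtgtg
SDHD, ETS, chr11:112086785-112086814, plus strand: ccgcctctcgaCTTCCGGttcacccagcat
UQCR11, NRF1, chr19:1605463-1605492, minus strand: cGCGCGTGCGCgccgcggccGCGCCTGCGC
UQCR11, ETS, chr19:1605561-1605590, minus strand: tccaaccctcgCCGGAAGttactgtaagtg

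The RefSeq start lay 28 bases or fewer from the GENCODE start of the counted transcript for SDHD and UQCR11, but 345 bases from it for NDUFA1, 619 for ATP5PF and 701 for UQCRC2. COX7A2L, the member called most often below, had none of the 4 motifs in its window, whose start lay 1 base from the GENCODE start. The 150 bases before that start, on the minus strand, are these.
COX7A2L, chr2:42361218-42361367: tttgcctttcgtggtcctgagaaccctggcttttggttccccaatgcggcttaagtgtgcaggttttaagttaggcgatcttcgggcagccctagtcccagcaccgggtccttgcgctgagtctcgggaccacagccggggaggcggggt

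Variation of FPKM across the 14 libraries is given for the members only, without a value for other genes. The coefficient of variation of a member's FPKM over the 14 libraries had a median of 7.12%, and by complex medians from 5.19% (complex II) to 8.38% (complex IV). It was smallest for NDUFA10 at 2.95% and largest for COX6B2 at 41.5%. Second to COX6B2 was ATP5F1D at 18.5%, followed by NDUFB7 at 15.3%, and COX6B2 had under 0.3 CPM in every library.

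The 2 control libraries lay furthest apart. The members summed to 14273 CPM in ctrl replicate 1 and to 11453 in ctrl replicate 2. They summed to 14403 in SA1Q+gRNA replicate 1 and to 12638 in SA1Q+gRNA replicate 2, and the other 10 libraries lay between 12734 and 13562. In ctrl, 5 of 80 members were higher in replicate 2 than in replicate 1. Their median log2 difference was -0.33, against 0.01 over all genes tested. In SA1Q+gRNA, 7 of 80 were higher in replicate 2, with a median of -0.15, against -0.0025 over all genes tested. In the other 5 groups the members' medians lay between -0.0008 and 0.03. The shift in ctrl was shared by all complexes, with medians from -0.25 (complex II) to -0.40 (complex IV). Of the 80 members, 59 had their lowest level in ctrl replicate 2, and 50 had their highest in ctrl replicate 1 or SA1Q+gRNA replicate 1. Such counts are not given for all genes here.

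These differences went with transcript features across all genes tested. Spearman's rho between the replicate difference and transcript size was 0.40 in ctrl and 0.41 in SA1Q+gRNA, and that with GC content was -0.23 and -0.58. The values are descriptions across genes within a pair of libraries, and genes are not independent. In the other groups rho with size lay between -0.20 and 0.03. Their rho with GC content was 0.39 in SA1Q, 0.46 in SA1+gRNA, 0.35 in SA2Q+gRNA, -0.01 in SA2Q and -0.04 in SA2+gRNA. The first 3 were opposite in sign to those of ctrl and SA1Q+gRNA, and the members' medians in those 3 groups lay between -0.0008 and 0.01. The part of size or GC content in the members' difference was not tested. The counts called and the medians over the members in comparisons that use ctrl or SA1Q+gRNA are therefore also given without these libraries.

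**Figure D2:**
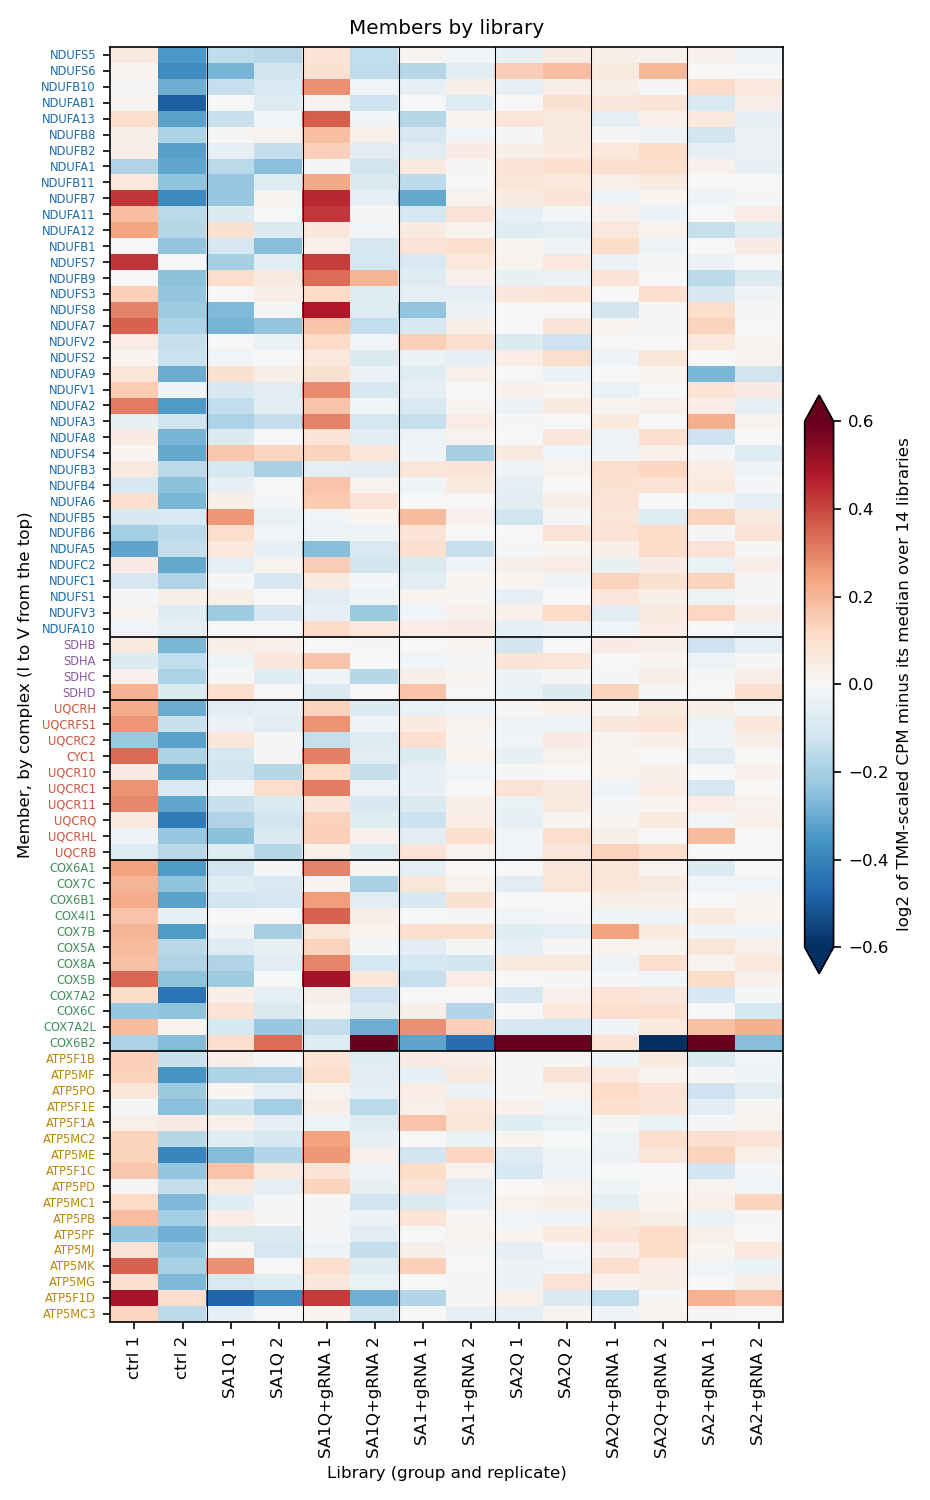
TMM-scaled CPM of each tested member (rows, grouped by complex I to V from the top) in each library (columns, 2 per group), as log2 minus the member's median over the 14 libraries; colours end at 0.6 in each direction. Most members are low in ctrl replicate 2 and many are high in ctrl replicate 1 and SA1Q+gRNA replicate 1.

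**Figure D3:**
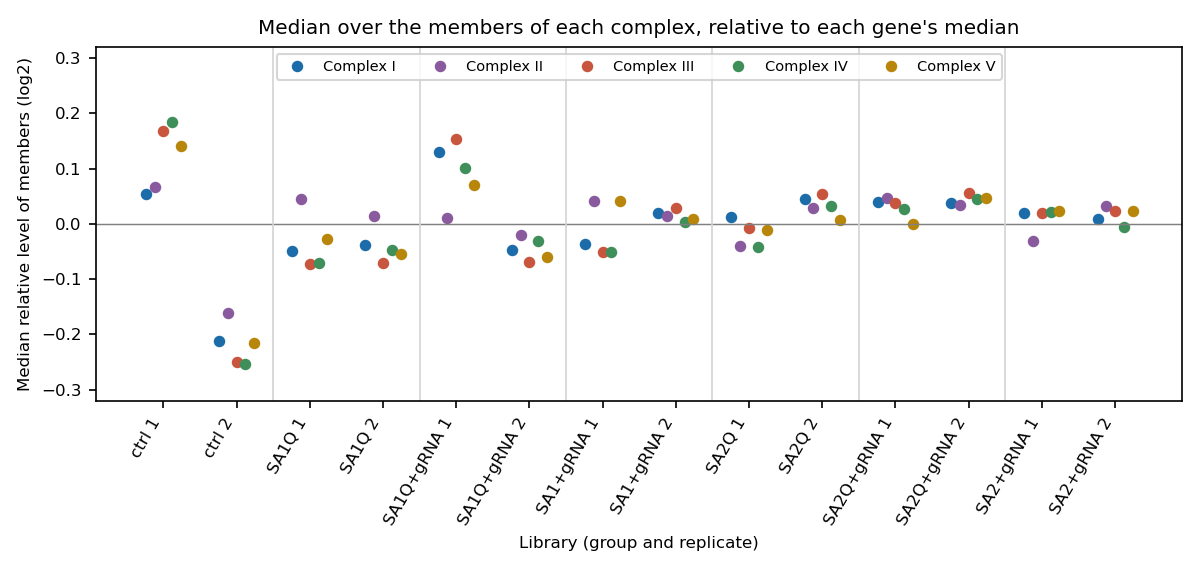
Median relative level (log2) over the tested members of each complex in each library, with 0 at each gene's mean log2 level over 14 libraries. The complexes of ctrl replicate 2 lie between -0.25 and -0.16 and those of ctrl replicate 1 between 0.05 and 0.18.

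The first question was whether the members differed anywhere among the 7 groups. One test per gene (edgeR's quasi-likelihood F test, Benjamini-Hochberg adjustment over 16418 genes) called 1 member of 80, COX7A2L, against 1.57% of all genes. COX7A2L is the subunit-like protein known to join complexes III and IV into supercomplexes. NDUFA1 (adjusted p = 0.0873), ATP5PF (0.0987), UQCRC2 (0.125), NDUFB9 (0.14) and ATP5F1D (0.205), by the same edgeR test, came next and did not pass. DESeq2 called 6 members and limma-voom 0, and the share of all genes that these tools called is not given here.

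COX7A2L (chr2:42577645-42588356 on hg19, minus strand) stood lower in each library of the Q lines than in those of the lines with a wild-type deaminase domain. It stood at 80.9 and 73.9 CPM in SA1+gRNA, 75.6 and 77.6 in SA2+gRNA, and 76.3 and 67.8 in ctrl. It stood at 62.1 and 57.1 in SA1Q, 60.6 and 54.6 in SA1Q+gRNA, 62.5 and 62.3 in SA2Q, and 66.0 and 69.6 in SA2Q+gRNA. All 8 libraries of the Q lines lay below the 4 of the wild-type lines, and 7 of the 8 lay below both ctrl libraries. How many of all genes show this order is not given here. COX7A2L was the member with the smallest p over the 7 groups, on these same values. Across the 7 groups its adjusted p was 0.0498 by edgeR, and it did not pass with the other size factors tried (RLE), with counts summed over transcripts, or when any 1 of the 10 libraries outside ctrl and SA1Q+gRNA was left out. The design holds no SA1 or SA2 group without guide, so a Q form can be set against its wild-type form only with guide present.

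In that contrast COX7A2L was the only member called. In SA1Q+gRNA against SA1+gRNA it fell by 25.6%, a log2 change of -0.43 (SE 0.09, edgeR adjusted p = 0.0389), where 0.962% of all genes were called, 0.451% higher and 0.512% lower. The change was -0.42 with a fit of those 4 libraries alone, with an adjusted p of 0.34. In SA2Q+gRNA against SA2+gRNA it differed by -0.18 (SE 0.09, edgeR adjusted p = 0.672). There 0 of 80 members were called by edgeR, DESeq2 or limma-voom, 1 had an unadjusted p under 0.05 (ATP5PO), and 0.0122% of all genes were called. The difference between the 2 contrasts was -0.25 for COX7A2L (SE 0.13, edgeR adjusted p = 0.562), and 0 members were called in that test by edgeR, DESeq2 or limma-voom, with 0 at an unadjusted p under 0.05. Without SA1Q+gRNA replicate 2, 1 was called there.

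With each of the 4 libraries compared left out, the change of COX7A2L in SA1Q+gRNA against SA1+gRNA ran from -0.50 to -0.36. The call on it was lost without either SA1+gRNA library. The median change of all 80 members was 0.04, and that of complex IV was 0.10, with 49 of 80 above 0. Without SA1Q+gRNA replicate 1 the median was -0.06, that of complex IV was -0.0056, and 21 of 80 were above 0, so the direction turned on 1 library. In SA2Q+gRNA against SA2+gRNA the medians of the 5 complexes lay between 0.01 and 0.04. The libraries did not overlap for 11 members that were higher and 17 that were lower in SA1Q+gRNA (20.6% and 21.2% of all genes), and for 32 and 10 in SA2Q+gRNA (23.7% and 24.1%). The 95% interval of the change lay within 0.5 log2 units of 0 for 72 of 80 members with SA1 and for 78 of 80 with SA2. These intervals rest on a spread shared by the 7 groups. Over all genes, the standard deviation of the replicate difference was 0.29 in SA1Q+gRNA and in ctrl. It was 0.15 to 0.19 in the other groups. The intervals with SA1 are thus no firm bound on a change.

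Against ctrl, the next question was whether any SNAP-ADAR line differed from the empty vector. The 6 comparisons share the 2 ctrl libraries, so they are not independent. In SA1Q against ctrl, 1 member rose and 1 fell, UQCRC2 and ATP5F1D, where 1.07% of all genes rose and 1.74% fell (2.8% together). DESeq2 and limma-voom each called 2 members, and their shares of all genes are not given here. Of the 80 members, 40 lay above 0, and the median change was -0.0029, with 0.03 for complex I, 0.09 for complex II, -0.04 for complex III, -0.07 for complex IV and 0.0034 for complex V. The libraries did not overlap for 13 members that were higher and 7 that were lower, against 24.1% and 22.9% of all genes.

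UQCRC2 (chr16:21964609-21994668 on hg19, plus strand), a core protein of complex III, was lowest in ctrl. It stood at 226 and 211 CPM in ctrl, 277 and 262 in SA1Q, and 239.6 to 282 in all 12 libraries outside ctrl. The 2 ctrl libraries thus lay below every other one, an order whose share among all genes is not given here. In SA1Q it was 23.5% above ctrl, a log2 change of 0.30 (SE 0.07, edgeR adjusted p = 0.0405). The change was 0.29 in SA2Q, 0.33 in SA1+gRNA, 0.28 in SA2+gRNA, 0.30 in SA2Q+gRNA and 0.17 in SA1Q+gRNA, and edgeR called none of these (adjusted p 0.137 to 0.326). Ctrl is the common reference of all 6 values, so a low level in ctrl and a high level in the other groups cannot be told apart. The call in SA1Q held without ctrl replicate 1 (0.36, edgeR adjusted p = 0.0419) and was lost without ctrl replicate 2 (0.26, 0.0734), without either SA1Q library, and with a fit of only the 4 libraries compared (0.29, 0.248).

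ATP5F1D (chr19:1241749-1244824 on hg19, plus strand), the delta subunit in the central stalk of ATP synthase, was lowest in SA1Q. It stood at 126 and 95.5 CPM in ctrl and at 63.9 and 69.0 in SA1Q, and no other library was as low. How often other genes show this order is not given here. SA1Q+gRNA stood at 119 and 73.0, SA1+gRNA at 78.9 and 89.7, SA2Q at 91.0 and 83.9, SA2Q+gRNA at 80.6 and 88.7, and SA2+gRNA at 103 and 101. The change in SA1Q against ctrl was a fall by 39.9%, or -0.74 on the log2 scale (SE 0.17, edgeR adjusted p = 0.0363). Its replicates were far apart in ctrl and in SA1Q+gRNA, the 2 groups whose libraries differed most. The call was lost without ctrl replicate 1 (-0.52, edgeR adjusted p = 0.163) and without either SA1Q library, and with offsets for length and GC content it was -0.38 (0.00213). In the other 5 comparisons with ctrl it lay between -0.39 and -0.12 and was not called (edgeR adjusted p 0.445 to 0.867).

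**Figure D4:**
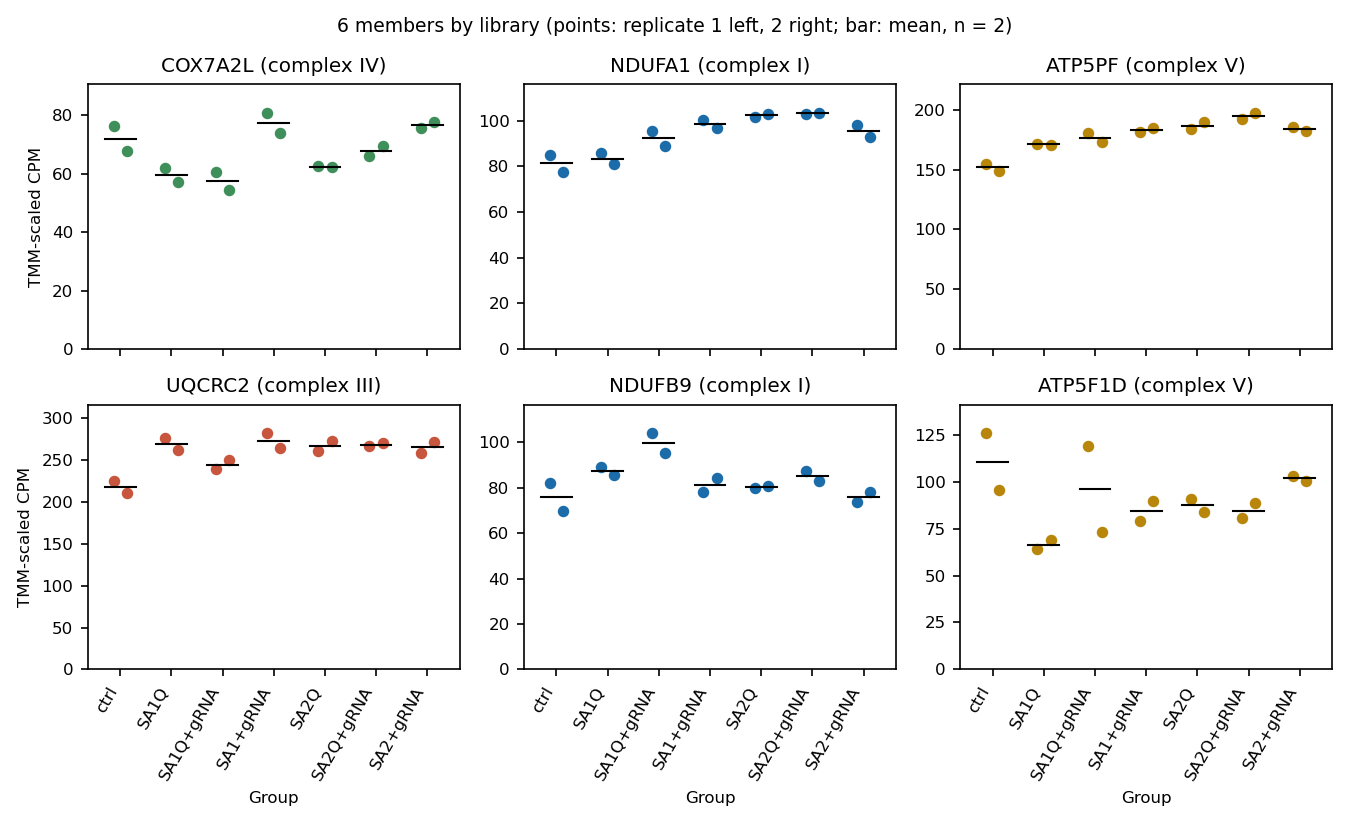
TMM-scaled CPM of 6 members in each library (points, replicate 1 left and 2 right) with the mean of each group (bars, n = 2), on axes that start at 0. COX7A2L is lower in the Q groups, UQCRC2 and ATP5PF are lowest in ctrl, and the ATP5F1D replicates of ctrl and SA1Q+gRNA lie far apart.

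In the other 5 comparisons with ctrl, edgeR and limma-voom called 0 members. At an unadjusted p under 0.05 there were 10 in SA2Q, 10 in SA1Q+gRNA, 13 in SA2Q+gRNA, 9 in SA1+gRNA and 8 in SA2+gRNA. Of all genes, edgeR called 0.0853%, 1.04%, 0.067%, 0.0426% and 0.104% in that order. DESeq2 called 3, 2, 3, 2 and 2 members. Its own share of all genes is not given here, so the edgeR shares are no background for these counts. The medians over the members were 0.07, 0.10, 0.08, 0.07 and 0.06, with 52, 62, 60, 54 and 54 of 80 above 0. Of all genes, 49.1%, 50.7%, 49%, 51.1% and 50% lay above 0 in that order. Without ctrl replicate 1 the medians were 0.23, 0.25, 0.28, 0.22 and 0.22, with 75 to 77 above 0. Without ctrl replicate 2 all 5 lay below 0, at -0.08, -0.06, -0.05, -0.10 and -0.08, with 18 to 28 above 0. In SA1Q+gRNA the median was -0.0054 without SA1Q+gRNA replicate 1. The intervals of 70 to 77 of the 80 members lay within 0.5 log2 units of 0. They rest on a spread shared by the 7 groups, while the members' median log2 difference between the ctrl replicates was -0.33. They are thus no firm bound on a change against ctrl. The largest difference in these comparisons, 0.99 in SA2Q, was that of COX6B2, whose SE was 0.61. The ctrl and line libraries did not overlap for 17 members that were higher and 3 that were lower in SA2Q (against 19.8% and 18.8% of all genes), 15 and 3 in SA1Q+gRNA (16.2% and 16.1%), and 20 and 2 in SA2Q+gRNA (20.4% and 19.4%). The counts were 17 and 2 in SA1+gRNA (18.1% and 18%) and 16 and 1 in SA2+gRNA (18.6% and 17.2%).

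ATP5PF (chr21:27096791-27107965 on hg19, minus strand), the F6 subunit in the peripheral stalk of ATP synthase, came closest in SA2Q+gRNA. It stood at 155 and 149 CPM in ctrl and at 192 and 197 in SA2Q+gRNA, and at 171 to 189 in the other 10 libraries. The ctrl libraries lay below all 12 others, and the share of all genes with this order is not given here. The log2 difference was 0.36 (SE 0.07, edgeR adjusted p = 0.0773), and with a single ctrl library kept it was 0.39 for replicate 2 (0.0739) and 0.33 for replicate 1 (0.146). GABPA overlaps it on the opposite strand, and the use of strand in counting is not given in the sources used here.

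NDUFB9, an accessory subunit in the membrane arm of complex I, came closest in SA1Q+gRNA. It stood at 104 and 95.2 CPM there, above the 12 other libraries at 69.6 to 88.9, of which ctrl had 82.3 and 69.6. No share of all genes with this order is given here. The log2 difference was 0.39 (SE 0.09, edgeR adjusted p = 0.0543). It passed without ctrl replicate 1 (0.52, 0.0288) and without SA1Q+gRNA replicate 2 (0.44, 0.0353), and did not without ctrl replicate 2 (0.27, 0.183) or SA1Q+gRNA replicate 1 (0.33, 0.146). Against SA1Q it was 0.19 (SE 0.09, edgeR adjusted p = 0.41).

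**Figure D5:**
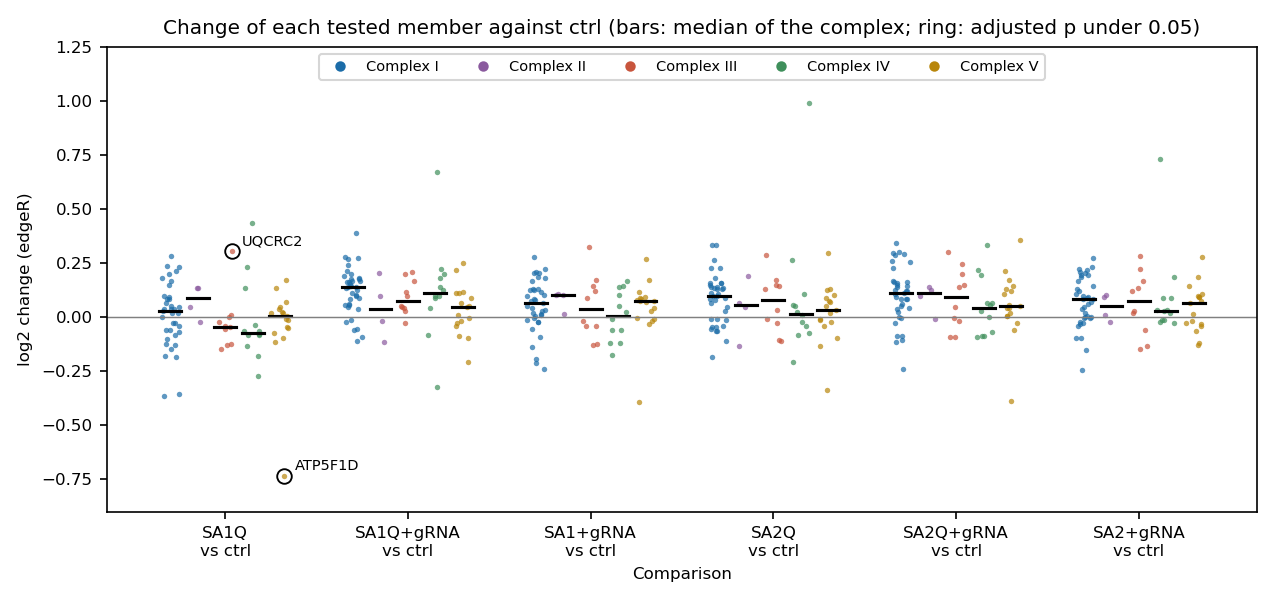
Log2 change of each tested member against ctrl (points, coloured by complex) in 6 comparisons that share the ctrl libraries, with the median of each complex (bars); rings mark an adjusted p under 0.05 by edgeR. UQCRC2 and ATP5F1D in SA1Q are ringed, the medians lie between -0.07 and 0.14, and the highest point of complex IV is COX6B2 in 4 comparisons and COX6C in SA2Q+gRNA and SA1+gRNA.

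The changes of the members against ctrl turned on the libraries that stood apart. Without ctrl replicate 1 and SA1Q+gRNA replicate 1, the lone ctrl library was the one with the low members and was assumed to vary like the other groups. The members called were then 15 in SA1Q (14 higher), 24 in SA2Q, 3 in SA1Q+gRNA, 34 in SA2Q+gRNA, 17 in SA1+gRNA and 20 in SA2+gRNA, and 26 in the test over the 7 groups. Without ctrl replicate 2, 5 members were called in SA1Q, all lower, and the median change was -0.15, against 4, all higher, and 0.18 without ctrl replicate 1, and 0 were called without either SA1Q library. In SA1Q+gRNA against ctrl, 5 were called without ctrl replicate 1 and 2 without SA1Q+gRNA replicate 2. The direction of the median thus turned with the ctrl library kept in each of the 6 comparisons with ctrl. For these fits the share of all genes called is not given here. The counts of members called are thus not shown to be particular to the members.

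The effect of adding guide was tested within each Q line. In SA1Q+gRNA against SA1Q, edgeR, DESeq2 and limma-voom called 0 of 80 members, 8 had an unadjusted p under 0.05, and 0% of all genes were called by edgeR. The median was 0.10, with 0.18 for complex IV and 0.004 for complex V. Without SA1Q+gRNA replicate 1 it was 0.01, with 0.04 for complex IV, and with offsets for length and GC content it was -0.04, with 29 of 80 above 0 in place of 56. The libraries did not overlap for 31 members that were higher with guide and 7 that were lower, against 19.3% and 19.4% of all genes. Without SA1Q+gRNA replicate 2 the median over the members was 0.15. ATP5F1D differed most, by 0.53 (SE 0.17, edgeR adjusted p = 0.387). UQCRC2 differed by -0.14 (SE 0.07, edgeR adjusted p = 0.438).

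In SA2Q+gRNA against SA2Q, edgeR, DESeq2 and limma-voom again called 0 members, 0 had an unadjusted p under 0.05, and 0% of all genes were called by edgeR. The intervals of 78 of 80 lay within 0.5 log2 units of 0, and the median was 0.02. The libraries did not overlap for 33 members that were higher with guide and 11 that were lower, against 21.2% and 19.5% of all genes. The difference in the effect of guide between the Q lines was called for 0 members by edgeR, DESeq2 or limma-voom. ATP5F1D was the 1 member with an unadjusted p under 0.05, at 0.58 (SE 0.24, edgeR adjusted p = 0.713).

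The last comparison set the SA1Q line against the SA2Q line, each as the mean of its groups with and without guide. It does not use ctrl. NDUFA1 alone was called, where 2.75% of all genes were (1.03% higher and 1.72% lower). NDUFA1 (chrX:119005734-119010629 on hg19, plus strand), a small accessory subunit in the membrane arm of complex I, was lower in the SA1Q line by a log2 difference of -0.23 (SE 0.06, edgeR adjusted p = 0.0417). It stood at 86.0, 80.9, 95.7 and 88.9 CPM in the 4 libraries of the SA1Q line and at 102, 103, 103 and 103 in those of the SA2Q line, with no overlap. In ctrl it stood at 85.0 and 77.7, within or below the range of the SA1Q line, and in SA1+gRNA and SA2+gRNA at 92.9 to 100.3. RNF113A overlaps it on the opposite strand.

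Libraries of the lines did not overlap for 2 members that were higher and 4 that were lower in the SA1Q line, against 5.63% and 6.22% of all genes. In this comparison 33 of 80 members were above 0. The median was -0.03 (-0.09 without SA1Q+gRNA replicate 1 and 0.0084 without replicate 2). The intervals of 79 lay within 0.5 log2 units of 0. They are no firm bound either, because they use the shared spread and the SA1Q+gRNA replicates lay further apart. NDUFS6, an accessory subunit with a zinc site, differed by -0.26 (SE 0.08, edgeR adjusted p = 0.114) with overlapping libraries, and passed without SA1Q+gRNA replicate 1 (-0.32, 0.0399). UQCRC2 differed by -0.06 (SE 0.05, edgeR adjusted p = 0.609) and ATP5F1D by -0.11 (SE 0.12, 0.705). The call on NDUFA1 was lost when any 1 of the 8 libraries but SA1Q+gRNA replicate 1 was left out. It was also lost with no filter on low counts, with counts summed over transcripts, and with offsets for length or for length and GC content (edgeR adjusted p 0.0533 to 0.0957). Without SA1Q+gRNA replicate 1 and ctrl replicate 1 together, the median over the members was -0.09, with 16 of 80 above 0.

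Other genes that build or feed these complexes were read in the same fits. There edgeR called 2.8% of all genes in SA1Q against ctrl, 2.75% between the Q lines and 1.04% in SA1Q+gRNA against ctrl. Of 48 assembly factors tested, 1 rose in SA1Q against ctrl, NDUFAF4, a complex I assembly factor, at 0.35 (SE 0.09, edgeR adjusted p = 0.0445). In the SA1Q line against the SA2Q line, NDUFAF6 was higher, at 0.37 (SE 0.09, edgeR adjusted p = 0.0402), and NDUFAF1 lower, at -0.30 (SE 0.07, 0.0359), and both are complex I assembly factors. Of 15 regulators of mitochondrial biogenesis, LRPPRC, which binds mitochondrial mRNA, was higher in the SA1Q line, at 0.30 (SE 0.07, edgeR adjusted p = 0.0293). Of 77 mitochondrial ribosomal proteins, MRPL58 rose in SA1Q against ctrl at 0.34 (SE 0.08, edgeR adjusted p = 0.0424) and in SA1Q+gRNA against ctrl at 0.42 (SE 0.08, 0.0264). Of 18 genes of the citric acid cycle and the electron carriers, edgeR and limma-voom called 0 in each of 14 comparisons, with 0 to 4 at an unadjusted p under 0.05. DESeq2 called 2 of them in SA1Q against ctrl, 1 in the comparison of the Q lines and 1 in the test over the 7 groups. In that order it called 2, 7 and 4 assembly factors (edgeR 1, 2 and 0), 1, 1 and 1 regulators (edgeR 0, 1 and 0) and 3, 2 and 3 mitochondrial ribosomal proteins (edgeR 1, 0 and 0). The share of all genes called by DESeq2 is not given here, so its counts are not shown to be particular to these lists.

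The calls on these genes changed with the libraries left out. NDUFAF4 in SA1Q and MRPL58 in SA1Q and in SA1Q+gRNA passed without ctrl replicate 1 (edgeR adjusted p 0.0247, 0.0388 and 0.0352) and not without ctrl replicate 2 (0.114, 0.0966 and 0.0982). The calls in SA1Q were also lost without either SA1Q library, and that in SA1Q+gRNA without its replicate 1. Between the Q lines, the calls on NDUFAF1 and LRPPRC held only when SA1Q+gRNA replicate 1 was the 1 library of 8 left out, and that on NDUFAF6 only when it was SA1Q+gRNA replicate 2.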

How the data were processed

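Fragments were counted per RefSeq transcript in 14 libraries. The deposited count column held whole numbers, raw per the file headers and values. The FPM column, a coverage signal that the authors scaled to the library total, served to choose 1 transcript per gene, that with the highest mean. The FPKM column, which the authors also scaled to transcript size, gave levels between genes. Per the labels' protocols, DNase-treated RNA was selected for poly(A) tails and prepared with a stranded kit. The submitters' processing notes name Trim Galore, STAR 2.4.2a and hg19. The counting tool is not given in the sources used here, nor is its handling of strand and multiple matches.

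Accessions (45595) were named from a RefSeq table of GRCh38.p14 and then a GENCODE table (98.6%). Unnamed entries, 0.808% of counts on average, and entries under 200 nucleotides were left out. The test was edgeR 4.0.16 under R 4.3.3 (TMM, filterByExpr with a minimum count of 10, quasi-likelihood, two-sided) on all 14 libraries in 7 groups. Benjamini-Hochberg adjustment ran over 16418 genes per comparison, and an adjusted p under 0.05 was called. The common biological coefficient of variation over the genes tested was 8.67%, and the fit of each gene had 7 residual degrees of freedom. Values are given per library because n = 2. Alternatives were DESeq2 1.42.0, limma-voom (limma 3.58.1), RLE factors, no filter, summed transcripts, halved counts of SA1+gRNA replicate 2, offsets for length and GC content (GC known for 96.2% of genes), a replicate block, only the libraries compared, CPM per kilobase, and libraries left out. The scripts were tested on simulated data. The offset for length and GC together, the tests of differences between contrasts, the transcript of highest FPKM, and leave-out fits for ATP5PF, NDUFB9, NDUFS6 and list genes were added after seeing the data.

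Members and lists were chosen with earlier results of these data known. Any member could be named with its level. Full statistics were given for called members, for the 6 with the smallest p over the 7 groups, and for UQCRC2 and ATP5F1D. Of other lists, up to 2 called genes per direction were named. NDUFS6, ATP5PO, COX6B2 and COX6C were singled out in comparisons after their values were seen.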

Additional observations from a re-analysis of the deposited data

How the results depend on the processing

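Of 231 alternative counts of called members, 160 stayed within 1.5 times the main count and 71 did not. In most comparisons the main count was 0, where only a count of 0 stays in that range. The 160 thus do not show that calls held. Under a replicate block the count was 1 in SA1Q against ctrl (UQCRC2 at 0.30, adjusted p = 0.062 by edgeR) and 0 over the 7 groups, and it changed no other count. The replicate numbers were not taken to pair the libraries: 5 of 21 correlations of deviations between same-numbered libraries were over 0.1 (-0.28 to 0.469). With n = 2 per group, this check cannot exclude a batch shared by some groups. DESeq2 called 3 in SA2Q, 2 in SA1Q+gRNA, 3 in SA2Q+gRNA, 2 in SA1+gRNA and 2 in SA2+gRNA against ctrl, and 6 over the 7 groups, where limma-voom, RLE factors and summed transcripts gave 0 and no filter gave 2. Summed transcripts and no filter gave 0 between the Q lines, and no filter gave 1 in SA1Q+gRNA against ctrl. A fit of only the libraries compared gave 1 in SA1Q against ctrl and 0 in SA1Q+gRNA against SA1+gRNA. A length offset gave 6 in SA1Q, 2 in SA1Q+gRNA and 1 in SA2Q+gRNA against ctrl, 3 between the Q lines and 3 over the 7 groups. Offsets for length and GC content gave 12 in SA1Q, 3 in SA2Q, 7 in SA1Q+gRNA, 3 in SA2Q+gRNA, 1 in SA1+gRNA and 2 in SA2+gRNA against ctrl, 2 in SA1Q+gRNA against SA1+gRNA, 5 between the Q lines and 8 over the 7 groups. With each library left out, the counts ran from 0 to 5 in SA1Q and in SA1Q+gRNA against ctrl, 0 to 12 in SA1Q+gRNA against SA1Q, 0 to 11 in SA1Q+gRNA against SA1+gRNA, 0 to 2 between the Q lines, 0 to 1 for the difference between the Q effects, 0 to 4 over the 7 groups, and stayed at 0 elsewhere. Without ctrl replicate 1 and SA1Q+gRNA replicate 1 the counts were 20 for SA2+gRNA, 17 for SA1+gRNA, 34 for SA2Q+gRNA, 3 for SA1Q+gRNA, 24 for SA2Q and 15 for SA1Q against ctrl, 15 between the Q lines and 26 over the 7 groups. The change of ATP5F1D turned positive in SA1Q+gRNA against ctrl without ctrl replicate 1 (0.0052) or without SA1Q+gRNA replicate 2 (0.0989), and in SA2+gRNA against ctrl without ctrl replicate 1 (0.0929), also with SA1Q+gRNA replicate 1 left out (0.0926). With each library left out, these changes ran from -0.60 to 0.10 and from -0.31 to 0.09. The median level of the members moved from 119 FPKM to 126 with the transcript of highest FPKM and to 127 as CPM per kilobase. The share of all genes called under each alternative is not given here, so these counts are not shown to be particular to the members. The causes were not tested.

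With 2 libraries a group, the spread between libraries limits the precision for most members. A library left out leaves its group with 1 library, assumed to vary like the others. COX6B2 and the 6 untested members are limited by depth.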
